A study of Mus musculus with 40 samples.

Results

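The change in DNA methylation between wild-type (WT) follicular B cells and WT pro-B cells was followed over 208032 autosomal tiles of 100 bp, out of 971845 tiles in the table. A tile was a member when all 6 WT libraries had a value for it. No level entered this choice. Levels came from RRBS (reduced representation bisulfite sequencing), in which restriction fragments rich in CpG sites are sequenced after bisulfite has converted unmethylated cytosines. The later stage was follicular B cells of WT C57/bl mice: library 13 (male, 8 weeks), library 14 (male, 6 weeks) and library 15 (female, 6 weeks). It was set against pro-B cells of WT C57/bl mice: library 1 (male, 8 weeks), library 2 (male, 6 weeks) and library 3 (female, 6 weeks). The other 18 of the 24 RRBS libraries came from both stages of Tet2KO, Tet3KO and double-knockout (DKO) mice, in which the labels place the deletion under the MB1 promoter. They are used for the spread of the main fit and, at the end, to see the same tiles in libraries that had no part in the WT means. The 3 WT libraries of a stage differ in labelled sex or age and so stem from different mice, and the spread between them holds these differences too. The labels do not say whether mice were pooled, or whether both stages were taken from the same mice.

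In mammalian DNA most CpG sites carry 5-methylcytosine, whereas dense clusters of CpG sites, the CpG islands, are largely free of it. Pro-B cells are bone-marrow precursors that have started B-lineage commitment and divide, and follicular B cells are mature, resting cells that recirculate. Stretches that lose methylation during blood-cell differentiation often lie at enhancers, and the TET enzymes, which oxidise 5-methylcytosine, take part in that loss. An annotation of the mm9 build, whose coordinates the tiles carry, was not used here. Tiles are therefore placed by coordinates and by how many other tiles lie beside them, and carry no gene names. Genes that mark the cell types could not be looked up for the same reason.

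Libraries had values for 546389 to 608149 tiles in follicular cells and for 314437 to 425669 tiles in pro-B cells. The number of tiles is the nearest measure of depth at hand, since the table gives no read counts. Values of exactly 0 made up 26.2 to 28.6% of the member tiles in follicular libraries and 39.2 to 42.4% in pro-B libraries. Values of exactly 100% made up 4.85 to 6.91% in follicular libraries and 18.5 to 23.4% in pro-B libraries. The spread between libraries of a stage, pooled over tiles, was 5.14 points in follicular cells and 11.6 points in pro-B cells, so the pro-B libraries were 2.26 times as noisy per tile. As a check of the labels, the median level of 2025 dense tiles on chromosome X was 33.5% in female follicular library 15, against 1.39 and 0.855% in the male follicular libraries, and 19.4% in female pro-B library 3, against 0 in both male pro-B libraries.

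Averaged over all members, follicular cells were slightly more methylated. The mean level was 43.1, 42.8 and 43.0% in follicular libraries 13, 14 and 15, and 41.1, 41.9 and 41.7% in pro-B libraries 1, 2 and 3. All follicular libraries lay above all pro-B libraries. The difference was 1.41 points (SE 0.269; two-sided exact permutation p = 0.1, the smallest that 3 against 3 libraries can give; 0.117 after Benjamini-Hochberg adjustment over 7 such comparisons). It was seen on each of the 19 autosomes, where it ran from 1.23 to 1.66 points with no overlap between the stages. Single tiles moved both ways, with 50.8% higher, 35.3% lower and 13.99% equal in follicular cells.

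The gain lay mainly in tiles that were neither bare nor full. At the 25531 tiles with a mean of 20 to 80% over the 6 libraries, the level was 57.9, 56.6 and 57.2% in follicular libraries 13, 14 and 15. The same tiles stood at 45.9, 52.1 and 49.8% in pro-B libraries 1, 2 and 3. The stages did not overlap, and the difference was 8.01 points (SE 1.87; exact permutation p = 0.1). This gain was spread over the genome: of 362 windows of 1 Mb with at least 20 such tiles, 353 had a higher mean in follicular cells, with a median difference of 7.24 points. At the 105184 tiles under 20%, follicular libraries averaged 2.63% ± 0.0486 and pro-B libraries 1.76% ± 0.114 (SD, n = 3 each; exact permutation p = 0.1). Over those of these tiles in which no pro-B value was exactly 0 or 100%, a choice made on pro-B values, the difference was -0.271 points (exact permutation p = 0.4). At the 77317 tiles over 80% the stages overlapped, at 93.2% ± 0.182 in follicular and 93.2% ± 0.0255 in pro-B cells (exact permutation p = 1). The same choice of tiles gave a difference of 2.72 points here, in place of -0.0225 (exact permutation p = 0.1). At tiles over 90%, with class limits of 10 and 90%, it was -1.11 points (exact permutation p = 0.1).

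The number of tiles moved with this gain, since each follicular library had more tiles than each pro-B library and pro-B library 1, with the fewest, was the lowest at intermediate tiles. Its part in the result was not tested. Knockout libraries give values at other depths, over the 12571 intermediate members that had a value in all libraries but Tet3KO library 8. There the level was 54.2, 52.9 and 53.5% in follicular WT and 44.1, 49.2 and 47.3% in pro-B WT. In Tet2KO, follicular libraries 16, 17 and 18 had 533586 to 580328 tiles and stood at 55.3, 55.2 and 55.3%. Pro-B Tet2KO libraries 4 and 5, with 532170 and 631415 tiles, stood at 52.6 and 54.7%, and library 6, with 402283 tiles, at 48.4%. Follicular DKO libraries, with 480090 to 527930 tiles, stood at 56.2 to 59.7%. Pro-B DKO library 10, with 556257 tiles, stood inside that range at 58.8%, while library 11, with 447477 tiles, and library 12, with 273728 tiles, stood at 49.8 and 49.7%. Follicular Tet3KO libraries 19, 20 and 21, with 550991, 579362 and 411441 tiles, stood at 55.35, 58.26 and 57.9%. Pro-B Tet3KO libraries 7 and 9, with 395044 and 318756 tiles, stood at 46.7 and 48.75%. Within Tet2KO and DKO the pro-B libraries with the most tiles stood highest. In Tet3KO library 9 stood above library 7, which had more tiles. Library 12, with fewer tiles than any WT library, stood at 49.7%, just above the highest pro-B WT library at 49.2%.

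**Figure D1:**
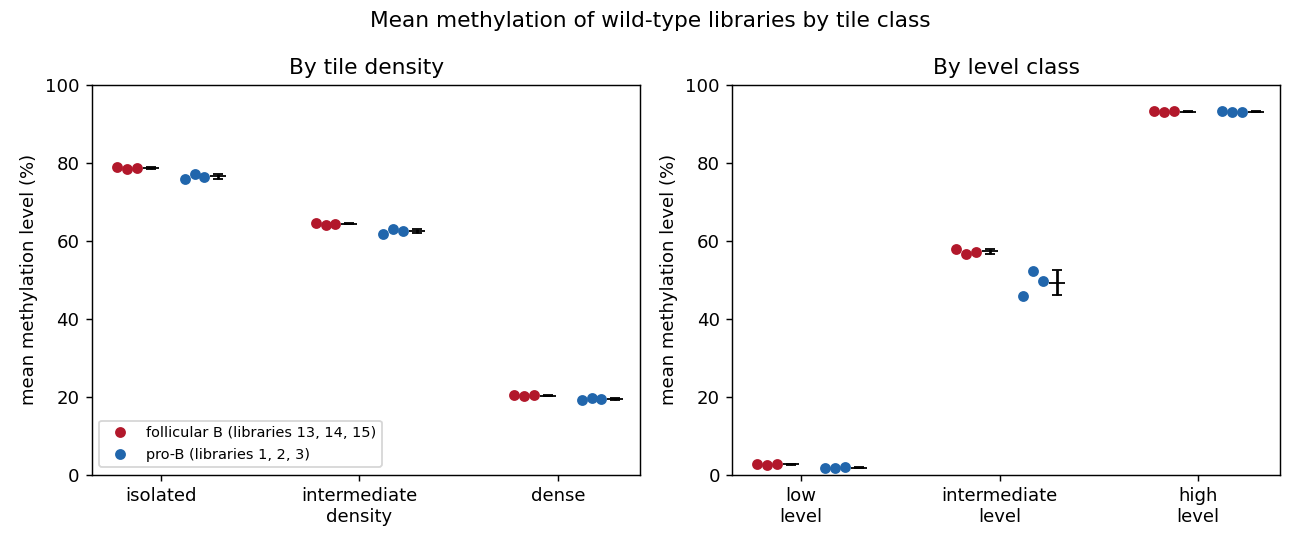
Mean methylation level (y axis, percent) of each wild-type library by tile density (left) and by level class (right); points are libraries, bars give the mean ± SD of 3 libraries. Intermediate tiles show the widest gap, with follicular libraries at 56.6 to 57.9% and pro-B libraries at 45.9 to 52.1%.

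Tile density served as a stand-in for CpG islands. Tiles with at least 5 other tiles within 500 bp on either side were called dense, those with 2 to 4 of intermediate density and those with 1 or none isolated. The 109092 dense tiles averaged 19.8% over both stages, the 73935 tiles of intermediate density 63.5% and the 25005 isolated tiles 77.6%, the order known for CpG islands and their surroundings. Follicular cells lay above pro-B cells in every class, by 0.902 points in dense tiles, 1.88 in tiles of intermediate density and 2.27 in isolated tiles (exact permutation p = 0.1 each, adjusted 0.117). Part of this order follows from how many tiles of intermediate level a class holds. Within intermediate levels, isolated tiles stood at 63.0% ± 0.637 in follicular and 53.3% ± 3.52 in pro-B cells, and dense tiles at 51.6% ± 0.782 in follicular and 44.9% ± 2.92 in pro-B cells (SD, n = 3 each). The isolated tiles exceeded the dense ones by 11.4 points ± 0.177 in follicular libraries and by 8.40 points ± 0.626 in pro-B libraries, without overlap (difference 3.01 points; exact permutation p = 0.1).

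Few single tiles passed the test of the stage difference. A tile was called when limma's Benjamini-Hochberg adjusted p over all 208032 tiles was under 0.05 and the stage means differed by at least 20 points. By this rule 122 tiles fell in follicular cells (0.0586% of those tested) and 254 rose (0.122%), 376 in all (0.181%), and at each of these the 6 libraries did not overlap between the stages, as they did not at 6.8% of all tiles lower and 8.2% of all tiles higher in follicular cells. Without overlap and with at least 20 points, whatever the p, there were 1192 tiles lower (0.573%) and 3955 higher (1.9%) in follicular cells. Rising tiles were 67.6% of the calls, but 50.4% (122 fallen, 124 risen) once each library was centred on a common level. The count of risen tiles also hung on single libraries. It was 160, 159 or 140 without follicular library 13, 14 or 15, and 460, 665 or 626 without pro-B library 1, 2 or 3, and the count of fallen tiles ran from 89 to 153.

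Falling tiles were mostly full in pro-B cells and part-way methylated in follicular cells. Of the 122, 102 stood above 80% in pro-B cells, and in follicular cells 100 stood between 20 and 80% and 22 under 20%. Their median level was 55.3% in follicular and 94.5% in pro-B cells, and the median difference was -34.6 points, beside 0.0453 points over all tiles tested. At 9 tiles the level was under 20% in follicular and above 80% in pro-B cells. Rising tiles had low or middling pro-B levels: 129 of the 254 stood under 20% in pro-B cells and 125 between 20 and 80%. In follicular cells 117 of them stood above 80% and 137 between 20 and 80%, with medians of 78.1% in follicular and 18.6% in pro-B cells. At 14 tiles the level was above 80% in follicular and under 20% in pro-B cells.

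**Figure D2:**
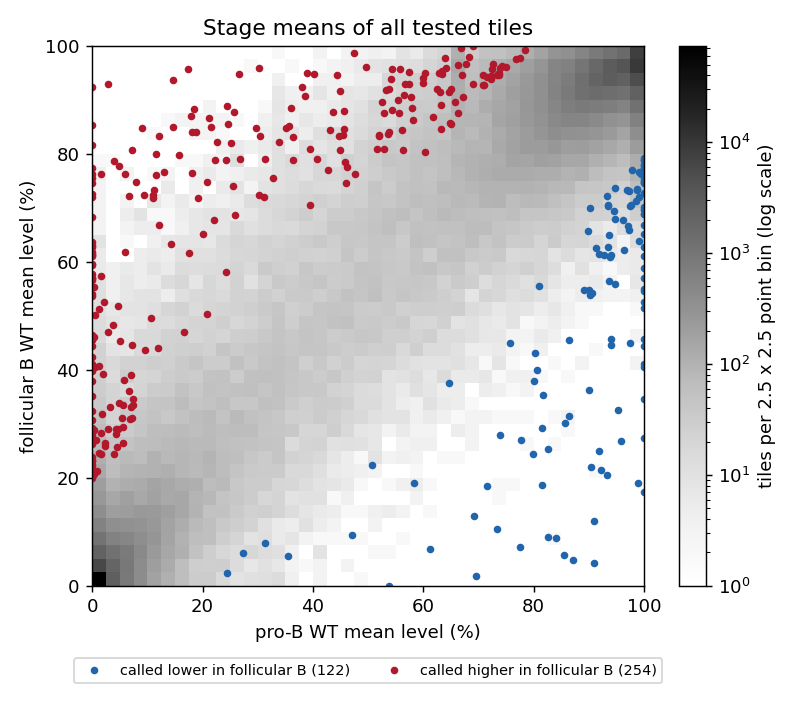
Follicular (y axis) against pro-B (x axis) mean level in percent for all tested tiles, as a grey density on a log scale, with the 122 fallen tiles in blue and the 254 risen tiles in red. Fallen tiles lie mostly at the right edge, above 80% in pro-B cells, while risen tiles lie above the diagonal, 129 of them under 20% in pro-B cells.

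Called tiles were found in all density classes. Among dense tiles 0.0330% fell and 0.0513% rose, against 0.0879% and 0.203% of tiles of intermediate density and 0.0840% and 0.192% of isolated tiles. Dense tiles made up 29.5% of the fallen and 22.05% of the risen tiles, and 52.4% of those tested. Most dense tiles are nearly bare, and among tiles of intermediate level the shares lay closer. There 0.291% of dense, 0.257% of intermediate-density and 0.341% of isolated tiles fell, and 0.494, 0.794 and 0.910% rose. Among dense tiles under 20% only 3 of 83527 fell and 10 rose. By chromosome the share that fell ran from 0 of 6294 tiles on chromosome 16 to 0.109% on chromosome 6, and the share that rose from 0.0342% on chromosome 14 to 0.230% on chromosome 10.

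Called tiles rarely lay side by side. Neighbouring called tiles of the same direction, at most 500 bp apart, were joined, which gave 117 falling regions and 236 rising regions. Of these, 5 falling and 18 rising regions held 2 called tiles, and none held more. Tiles directly beside a fallen tile that were not called themselves averaged 66.1% in follicular and 74.5% in pro-B cells, 8.32 points lower (92 tiles). At 200 bp the difference was -4.38 points (40 tiles) and at 300 bp 0.117 points (21 tiles). Beside risen tiles it was 15.2 points at 100 bp (191 tiles), 7.72 at 200 bp (70 tiles) and 1.89 at 300 bp (29 tiles), against 1.41 points over all tiles tested. At 600 to 1000 bp it was -2.71 points around fallen tiles (40 tiles) and 6.71 around risen tiles (100 tiles). At 100, 200 and 600 to 1000 bp the libraries of the stages did not overlap for either direction (exact permutation p = 0.1 each). Around risen tiles they also did not overlap at 400 to 500, 1100 to 2000 and 2100 to 5000 bp, with differences of 4.41, 3.28 and 3.33 points. Around fallen tiles at 2100 to 5000 bp follicular libraries lay above pro-B libraries, by 1.15 points. Adjacent tiles can share sequenced fragments, so the nearest values are not independent of the called tile.

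**Figure D3:**
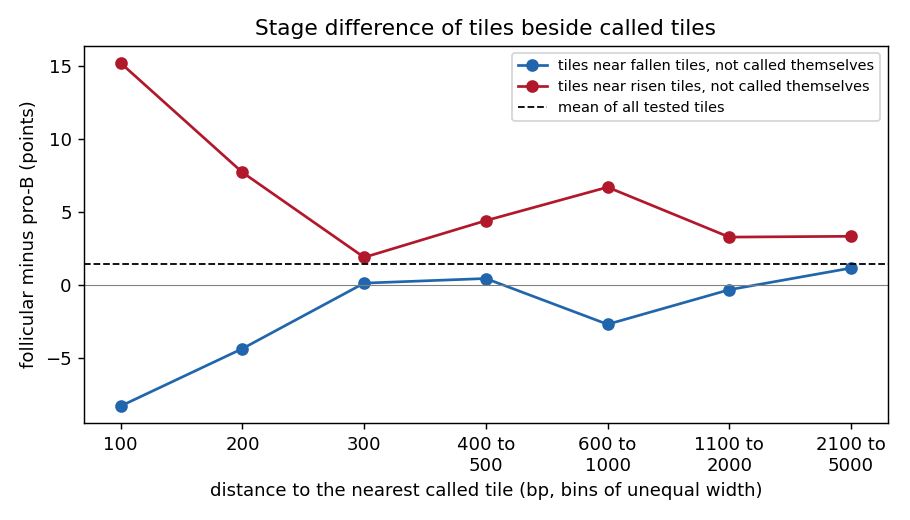
Mean stage difference (y axis, follicular minus pro-B, percentage points) of tiles that were not called, by distance to the nearest fallen or risen tile (x axis, bp, bins of unequal width); the dashed line is the mean of all tested tiles. The difference shrinks from 15.2 to 1.89 points beside risen tiles and from -8.32 to 0.117 points beside fallen tiles between 100 and 300 bp. At 600 to 1000 bp it is 6.71 points around risen and -2.71 points around fallen tiles.

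Of the 5 falling regions with 2 called tiles, chr4:140491701-140491900 (mm9) had the largest difference. Its level was 27.8, 28.5 and 33.4% in follicular libraries 13, 14 and 15, against 98.4, 100 and 94.4% in pro-B libraries 1, 2 and 3. A nearly full stretch in pro-B cells was thus at about the same low level in each follicular library, with a difference of -67.7 points and limma's adjusted p of 0.00159 and 0.00568 for its tiles. The 1 further member tile within 500 bp was also lower, at 53.4% in follicular and 99.1% in pro-B cells.

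The region chr3:88419801-88420000 stood at 35.8, 20.7 and 29.0% in follicular libraries and at 100, 82.2 and 90.2% in pro-B libraries. It lay among dense tiles. The 1 further member tile within 500 bp stayed nearly full, with a difference of -3.36 points, and the other tiles there lacked some WT values. The region's own difference was -62.3 points (limma's adjusted p 9.005e-05 and 0.00563). These first 2 regions kept their call without any of the 6 libraries in turn, but only the one at chr4:140491701, of the 5 named, was also called when the 6 WT libraries were fitted alone.

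The region chr4:8636501-8636700 was at 22.5, 29.0 and 30.3% in follicular libraries and 83.3, 92.6 and 100% in pro-B libraries. It was no longer called without follicular library 13, 14 or 15. At chr6:88726901-88727100 the levels were 19.2, 26.5 and 23.95% in follicular libraries and 86.5, 57.8 and 74.0% in pro-B libraries, with no pro-B value at exactly 0 or 100%. Its call was lost without follicular library 13 or 15 or pro-B library 1. The last, chr15:58889101-58889300, fell less, to 68.2% ± 4.92 in follicular cells against 97.3% ± 0.469 in pro-B cells (SD, n = 3 each), and lost its call without any 1 of the 6 libraries.

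The named single tiles had the 10 largest falls among the 44 fallen tiles with no pro-B value at exactly 0 or 100%. Some of them went lower than the regions above. The tile chr9:114953901-114954000 stood at 13.3, 4.44 and 9.14% in follicular libraries and at 86.7, 82.1 and 79.2% in pro-B libraries (difference -73.7 points, limma's adjusted p 2.435e-05). The tile chr1:58994201-58994300 stood at 0, 0 and 5.56% in follicular libraries and at 62.5, 75.6 and 70.6% in pro-B libraries. The tile on chromosome 1 was almost bare in each follicular library. The tile chr11:54844601-54844700 stood at 8.84, 8.89 and 2.53% in follicular libraries and at 71.3, 61.7 and 50.8% in pro-B libraries, and chr19:37570501-37570600 at 3.96, 18.8 and 8.77% against 90.9, 68.6 and 60.6%. These 4 tiles kept their call without any of the 6 libraries in turn, as did 2 others of the 10 named, while 0 of the 10 were called by limma in the fit of the 6 WT libraries alone. The tile chr13:20216901-20217000 was at 0 in all 3 follicular libraries and at 59.6, 52.6 and 49.1% in pro-B libraries, and was not called without follicular library 13, 14 or 15 or pro-B library 1. The 10 differences ran from -73.7 to -53.1 points.

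Among rising regions with 2 called tiles, 6 of the 10 named were at exactly 0 in all 3 pro-B libraries. The region chr10:17859201-17859400 had the largest difference of the 10 and stood at 69.2, 85.4 and 74.8% in follicular libraries. It lost its call without follicular library 14. The region chr10:40021801-40022000 stood at 56.2, 59.6 and 56.7% in follicular libraries and at 0 in each pro-B library (difference 57.5 points, limma's adjusted p 0.000687 and 0.00113). Follicular libraries were close to each other here, and 4 further tiles within 500 bp were bare in both stages, at 0.532% in follicular and 0 in pro-B cells. The gain was thus confined to the 2 called tiles among the 6 measured ones. The regions chr18:64609501-64609700, at 62.2% ± 6.47 in follicular cells, and chr4:51267101-51267300, at 58.3% ± 5.28, were at 0 in pro-B cells too. These 3 regions kept their call without any of the 6 libraries in turn, and the other 7 named did not. In limma's fit of the 6 WT libraries alone 0 of the 10 were called.

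The other 4 named rising regions were above 0 in at least 2 pro-B libraries. At chr8:122349001-122349200 the level was 95.7, 85.3 and 93.9% in follicular libraries and 25.0, 25.0 and 34.8% in pro-B libraries. These means join unlike tiles: the second was at 92.3% in follicular cells and at 0 in all 3 pro-B libraries, and the first at 90.9% in follicular and 56.5% in pro-B cells. The call was lost without follicular library 13 or 15 or pro-B library 1. At chr5:123213701-123213900 it was 85.8, 93.0 and 90.6% in follicular libraries and 40.5, 32.0 and 26.5% in pro-B libraries, with the call lost without follicular library 15. At chr8:3803101-3803300 it was 86.7% ± 2.52 in follicular and 16.6% ± 17.2 in pro-B cells (SD, n = 3 each), and the call was lost without any 1 library other than pro-B library 2. Among single tiles with no pro-B value at exactly 0 or 100%, chr4:73208101-73208200 rose most, to 93.1, 100 and 94.2% in follicular libraries against 13.6, 35.0 and 3.57% in pro-B libraries. The tile chr11:75490401-75490500 stood at 97.0, 95.1 and 92.8% in follicular libraries and at 50, 16.7 and 50% in pro-B libraries. Both kept their call without any of the 6 libraries in turn, as did 2 others of the 10 named, whose differences ran from 56.1 to 78.4 points. Again 0 of the 10 were called by limma with the 6 WT libraries alone.

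Pro-B values of exactly 0 or 100% were then examined, since a tile read few times can be listed at either end. Of the 376 called tiles, 87 (23.1%) had all 3 pro-B values at 0 or all 3 at 100%, compared with 39.6% of all tiles tested. The ends differed: tiles with all 3 at 100% were 38 of the 122 fallen tiles (31.1%) but 9.23% of tested tiles, and tiles with all 3 at 0 were 49 of the 254 risen tiles (19.3%) and 30.3% of tested tiles. No pro-B value was at an end in 44 of the fallen tiles (36.1%) and 140 of the risen tiles (55.1%), compared with 19.9% of tested tiles. Among tiles with no pro-B value at an end 0.106% fell and 0.338% rose, against 0.198% that fell among tiles with all 3 at 100% and 0.0776% that rose among tiles with all 3 at 0. With all such tiles, and only these, in the fit, 88 fell and 363 rose, and they included all 44 and all 140. The end values did weigh on the fit of the 6 WT libraries alone. There limma called 67 fallen (0.0322%) and 99 risen tiles (0.0476%), and 110 of these 166 (66.3%) had all 3 pro-B values at one end, where the pro-B spread is 0. It called 5 fallen and 15 risen tiles that had no pro-B value at an end. A separate limma fit of the 6 libraries to the 41368 tiles with no pro-B value at an end called 0 at the adjusted threshold, with 5352 at an unadjusted p under 0.05.

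**Figure D4:**
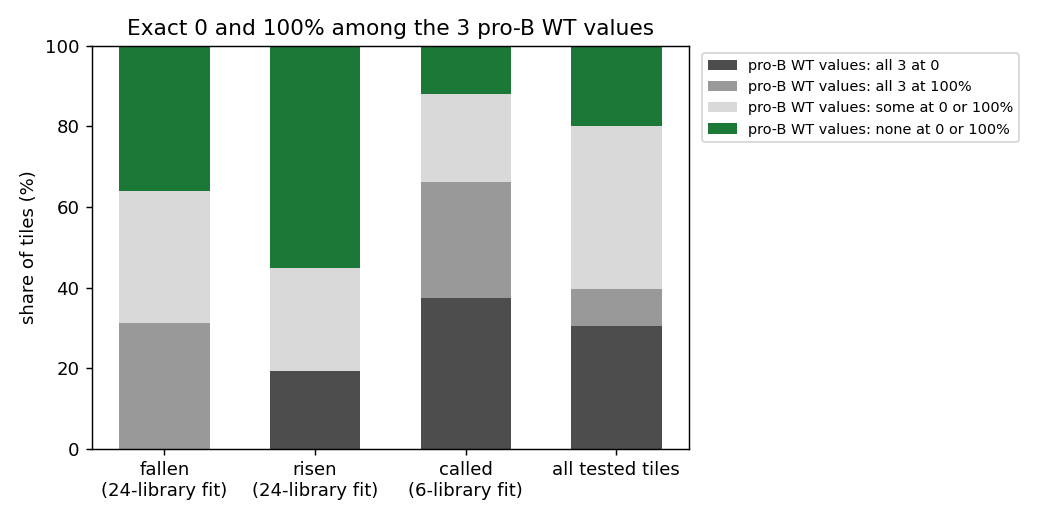
Share of tiles (y axis, percent) by how many of the 3 pro-B wild-type values were exactly 0 or 100%, for fallen and risen tiles of the 24-library fit, for the calls of the 6-library fit and for all tested tiles. Tiles with no such value make up 36.1% of fallen and 55.1% of risen tiles but 12.05% of the calls of the 6-library fit.

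The same ends were read in the pro-B knockout libraries. At the 49 risen tiles listed at 0 in all pro-B WT libraries, pro-B Tet2KO library 5, with more tiles than any WT library, was at exactly 0 in 14 of 49, with a median of 6.90% and a mean of 15.6%. Library 4 was at 0 in 19 of 46 and library 6 in 24 of 42. Over all tiles with 3 zeros in pro-B WT, library 5 was at 0 in 80.7% of the 62706 that had a value. Libraries 4 and 6 were at 0 in 82.6 and 85.6% of theirs. In Tet3KO libraries 7 and 9, 34 of 43 and 31 of 38 of the 49 risen tiles that had a value were at exactly 0. The counts were 28 of 44 and 28 of 34 in DKO libraries 11 and 12. For Tet3KO and DKO libraries the share over all tiles with 3 zeros is not given. DKO library 10 was at 0 in 12 of 47, with a median of 17.02%. At the 38 fallen tiles listed at 100% in pro-B WT, library 5 had a median of 96.7%, with 15 of 38 (39.5%) at exactly 100%, beside 50.4% of all tiles listed at 100% in the 3 pro-B WT libraries.

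The same tiles were last read in the knockout libraries. Their values had no part in the WT means, but their spread entered the fit that chose the tiles, so tiles with little spread in the knockouts were favoured, which bears on the counts without overlap given for them. The WT differences were used to choose the tiles and are given as a description. At 100 of the fallen tiles with values in all 6 Tet2KO libraries, follicular libraries stood at 61.5 to 62.0% and pro-B libraries at 83.9 to 85.4%. The difference was -22.7 points, where WT had -39.0 points at the same tiles, and 95 of the 100 tiles were lower in follicular Tet2KO cells, compared with 37.1% of all members. In DKO cells 62 tiles could be read, at 75.1 to 76.4% in follicular and 83.8 to 85.7% in pro-B libraries, a difference of -9.18 points where WT had -36.9. In Tet3KO only 1 fallen tile had a value in all 6 libraries; without library 8, which had 24600 tiles, 71 tiles stood at 65.3 to 66.7% in follicular and 84.3 to 84.8% in pro-B libraries (-18.4 points). All 3 genotypes kept the direction, without overlap between stages (exact permutation p = 0.1 each). Adjustment over 6 comparisons, with all libraries and hence 1 fallen tile in Tet3KO, left p at 0.1. Whether the fall differs between genotypes was not tested.

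In Tet3KO without library 8, 30 of the 71 fallen tiles differed this way without overlap by at least 20 points, and in DKO 15 of the 62, beside 0.601 and 0.278% of all members (0.13% in Tet3KO with library 8).

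The rise was also present in each genotype. At 211 of the risen tiles, follicular Tet2KO libraries stood at 63.7 to 65.2% and pro-B Tet2KO libraries at 42.3 to 46.9% (20.4 points). In DKO 158 tiles stood at 62.8 to 64.0% in follicular and 38.2 to 46.2% in pro-B libraries (22.2 points). In Tet3KO without library 8, 159 tiles stood at 63.2 to 64.2% in follicular and 35.8 to 36.7% in pro-B libraries (27.5 points). The 8 tiles with a value in all 6 Tet3KO libraries differed by 24.4 points. The rise was larger in WT at the same tiles, at 39.7 points for the 211, 38.6 for the 158 and 38.65 for the 159. Whether the rise differs between genotypes was not tested. The stages did not overlap in any genotype (exact permutation p = 0.1 each, and 0.1 after the same adjustment, which for Tet3KO holds for the 8 tiles). Pro-B Tet2KO library 5 had more tiles than the 3 follicular Tet2KO libraries. It was the highest of the pro-B Tet2KO libraries here, at 46.9%, and stood below each follicular Tet2KO library. The part of the number of tiles in the rise was not tested. Within Tet2KO, 98 of 211 risen tiles (46.4%) and 50 of 100 fallen tiles (50%) differed the same way without overlap by at least 20 points, beside 1.08 and 0.425% of all members in the same genotype. For risen tiles the count was 94 of 159 in Tet3KO without library 8, beside 3.44% of members (1.35% with it), and 79 of 158 in DKO, beside 1.24%. Tiles whose 3 pro-B WT values were all 0 rose by 32.1 points in Tet2KO (39 tiles) and 33.7 in DKO (28 tiles), where WT had 45.3 and 44.7. Risen tiles with none at an end rose by 15.7 (121 tiles) and 16.3 points (90 tiles), where WT had 34.9 and 33.9. Fallen tiles with all 3 at 100% differed by -16.3 points in Tet2KO (25 tiles) and -12.1 in DKO (14 tiles). Fallen tiles with none at an end differed by -25.8 (42 tiles) and -10.15 points (33 tiles).

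Named items show both patterns. The fallen tile chr9:114953901-114954000 averaged 31.3% in follicular Tet2KO, 40.1% in follicular Tet3KO and 91.4% in follicular DKO libraries, against 8.97% in follicular WT. Pro-B libraries stood there at 85.6% in Tet2KO, 100% in Tet3KO (2 libraries) and 93.9% in DKO (2 libraries), against 82.7% in WT. The fallen region chr4:140491701-140491900 averaged 52.7, 73.0 and 82.0% in follicular Tet2KO, Tet3KO and DKO libraries, against 29.9% in follicular WT. Its pro-B level was 89.7% in Tet2KO, 88.7% in Tet3KO (2 libraries) and 84.7% in DKO, against 97.6% in WT. The risen region chr10:40021801-40022000 stood at 56.3% in follicular and 3.30% in pro-B Tet2KO cells, close to its WT levels. The risen region chr5:123213701-123213900 did not keep its gap in Tet2KO, at 83.6% in follicular and 79.6% in pro-B cells. Nor did it in DKO, at 93.1% in follicular and 98.3% in pro-B cells. In Tet3KO it stood at 93.7% in follicular cells and at 18.75% in the 1 pro-B library with a value.

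**Figure D5:**
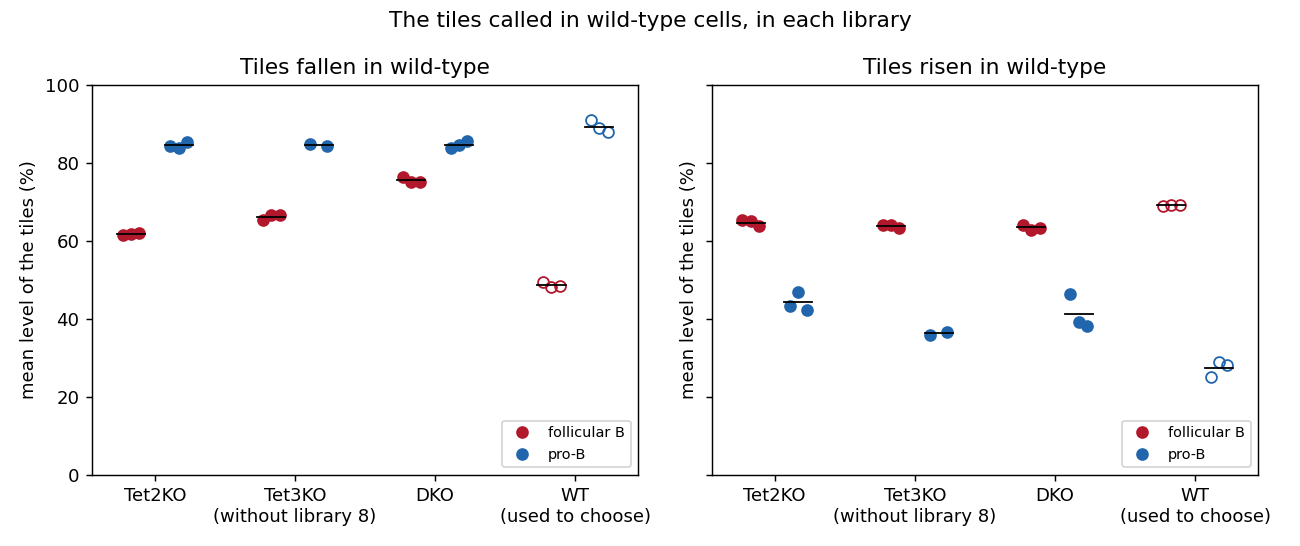
Mean level (y axis, percent) over the tiles that fell (left) or rose (right) in wild-type cells, in each library of each genotype; filled points are knockout libraries, open points the wild-type libraries used to choose the tiles, and lines are means. Tiles that fell in wild-type stand at 75.1 to 76.4% in follicular DKO libraries against 83.8 to 85.7% in pro-B DKO libraries. Risen tiles have a gap of 20.4 to 27.5 points in the knockouts, where wild-type had 38.6 to 39.7 points at the same tiles.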

How the data were processed

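RRBS levels of 24 libraries were used; 16 RNA samples were not analysed here. Per the file headers, the table lists 100 bp tiles; each value the authors deposited is a fraction of methylated cytosines between 0 and 1, shown here as a percent. Trim Galore and methylKit and the builds mm9 and hg19 are named in the submitters' processing notes; aligner, coverage minimum and conversion rate are not given in the sources used here. With a last chromosome 1 tile ending at 197193600, positions were read as mm9. Depth per tile is unknown, so no counting interval is given, and tiles with few reads cannot be told from deep ones.

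Limma 3.58.1 (R 4.3.3) was fitted to percent levels with 1 mean per group for the 8 groups, using all 24 libraries, which leaves 16 residual degrees of freedom at complete tiles, and a trended prior spread. Means per library were set against each other with exact two-sided permutation tests (Python 3.11.15, scipy 1.17.1). Named regions hold at least 2 called tiles, and named single tiles have no pro-B value at 0 or 100%, both without overlap, at most 10 per direction by size of difference. The fit was tested on simulated data. The planned gene context and gene lists were not used here, since the annotation at hand is of another build. The tiles, classes and tests were chosen with earlier results of these data known. Alternatives covered scale, libraries fitted, centring, exact 0 and 100% values, filters, thresholds and single libraries; the closing section gives their effect.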

Additional observations from a re-analysis of the deposited data

How the results depend on the processing

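Depth per tile is unknown, and pro-B libraries had fewer tiles and a larger spread than follicular ones, so tiles that were not called can still differ. With only the 6 WT libraries fitted, 67 tiles fell and 99 rose, of which 22 and 23 were among the 122 and 254; adding the removal of tiles with a pro-B value of exactly 0 or 100%, chosen after the data were seen, left 0 and 0. With the sex and age stratum as a block over all libraries 40 fell and 53 rose, and with it in the 6-library fit 0 and 0. The labels do not say that matched libraries share a mouse. Deviations of matched libraries correlated by 0.00304 to 0.0195, and those of unmatched libraries by -0.0181 to 0.00829. Values this small, over tiles with a large spread, cannot settle whether the strata pair the samples. Of the named items 2 of 5 falling and 1 of 10 rising regions, and 4 of 10 fallen and 3 of 10 risen tiles, were called with this block over all libraries, and 0 with it in the 6-library fit. A 30-point minimum gave 77 fallen tiles. Without tiles whose 3 pro-B values were all 0 or all 100%, 74 fell, and without tiles with any WT value at an end, 74 fell. Tiles with at least 2 of 3 values per stage gave 251 fallen and 1063 risen. Array weights gave 421 risen, and centring 124 risen. Leaving out 1 WT library gave 89 to 153 fallen and 140 to 665 risen tiles, and 53 of the 122 and 83 of the 254 were called in all 6 of these fits. Of the other settings none moved a count by over 1.5 times.

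The stage difference of library means kept its direction in every setting run for all tiles, the 3 density classes and intermediate levels (6.30 to 9.44 points for the last without 1 library). Without tiles that had a pro-B value at an end, it was -0.271 points at tiles under 20%, against 0.870, and 2.72 at tiles over 80%, against -0.0225; this filter removes tiles by their pro-B values, so it shifts these classes by construction. The difference over 80% was 0.00975 points at tiles with values in at least 20 libraries and -0.0801 to 0.0825 without 1 library. With level limits of 10 and 90%, the highest class differed by -1.11 points. Over 80%, tiles of intermediate density differed by -0.175 points, without overlap, and isolated and dense tiles by 0.187 and 0.127 points, with overlap. Neighbours were also counted within 1000 bp, with the class limits raised. Isolated tiles were then 32.0% of fallen and 36.2% of risen tiles, and 21.4% of those tested. Dense tiles were 11.5 and 9.06%, and 35.3% of those tested. Without tiles with a pro-B value at an end, 37.5% of fallen tiles were of intermediate density and 48.9% dense. The shares of these classes among all tiles so filtered are not given. In the 6-library fit 19.4% of fallen tiles were dense, and 7.46% of fallen and 15.2% of risen tiles had no pro-B value at an end. Stage differences in the knockouts kept their direction without any 1 library, at -23.4 to -22.5 (Tet2KO), -43.0 to -18.4 (Tet3KO) and -9.94 to -7.95 points (DKO) for fallen tiles, and 18.9 to 21.8, 22.8 to 27.5 and 19.2 to 25.4 points for risen tiles. In Tet3KO only the value without library 8 (-18.4 and 27.5) rests on 71 fallen and 159 risen tiles; with library 8 kept, 1 fallen and 8 risen tiles have a value in all 6 libraries.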
